A study of Mus musculus with 5 samples.

Results

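The collagen-rich fibroblasts described here were cells that the authors had labelled interstitial and that held at least 5 UMIs of Col1a1 and Col3a1 together and at most 1 UMI of Myh11 in the raw matrix. A UMI is a molecular tag that counts 1 captured transcript. The rule found 460 such cells among 23797 kept cells, 428 at day 10 and 32 at 48 h. By mouse they numbered 176, 173 and 79 at day 10 (mice 3, 4 and 5) and 15 and 17 at 48 h (mice 1 and 2). The study profiled mouse kidneys after ischemia-reperfusion injury (IRI), in which blood flow is stopped and then restored, by droplet single-cell RNA sequencing of transcript 3′ ends. The later group was 3 mice at day 10 and the earlier one was 2 mice at 48 h, each mouse being 1 library and 1 replicate. All 5 kidneys were injured, so no comparison with an uninjured kidney was possible, and the strain, age and sex of the mice and the batches are not given in the sources used here.

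Interstitial fibroblasts lie between the tubules and around the vessels of the kidney and make its fibrillar collagens, proteoglycans and elastic fibres. After injury they respond to signals such as TGF-beta, PDGF, Wnt and Hedgehog ligands, and some take on contractile genes, a state called the myofibroblast. Smooth muscle cells and pericytes share the interstitial label with them and are marked by the contractile gene Myh11 and by Rgs5, a regulator of G protein signalling.

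The members carried the markers of fibroblasts. Col1a1, the first chain of type I collagen, was at 3008, 3068 and 2879 CPM (UMIs of the gene per 1000000 UMIs summed over the members of a mouse) at day 10 and at 6306 and 6037 CPM at 48 h. Col3a1, the chain of type III collagen, was at 5111, 4610 and 5499 CPM at day 10 and at 12039 and 10616 CPM at 48 h. The cells were chosen by the UMIs of both genes and of Myh11 (8.29, 3.02 and 6.59 CPM at day 10, 0 and 9.69 CPM at 48 h), so these levels are a description and were not tested. Pdgfra, the receptor that marks fibroblasts and was not used by the rule, stood at 516, 538 and 511 CPM at day 10 and at 536 and 678 CPM at 48 h. Its groups overlapped, and its log2 change of -0.25 ± 0.18 (SE) did not pass the test (edgeR quasi-likelihood, Benjamini-Hochberg adjusted p = 0.538). Of the 460 members, 459 lay in 1 cluster of the authors' deposited clustering, number 7, which held 597 cells of the label. The 43 members just inside the collagen threshold, with 5 to 9 collagen UMIs, had a median of 1802 UMIs in all, and the 42 cells just outside it, with 2 to 4, had 1869. Summed Dcn was 319 CPM just inside and 106 CPM just outside, and Pdgfra was 430 and 170 CPM.

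Depth and the signs of RNA quality differed between the times. Members held a median of 15673, 10413 and 15004 UMIs at day 10 and of 6407 and 11111 at 48 h. Summed over members this gave 2652778, 2316520 and 1214552 UMIs at day 10, against 156825 and 206389 at 48 h, so each value at 48 h rests on 15 or 17 cells and is the less precise. The median mitochondrial share was 4.06, 5.30 and 4.15% at day 10 and 7.97 and 7.07% at 48 h. Macrophage markers summed to 243, 346 and 736 CPM in day 10 members and to 25.5 and 63.0 CPM in 48 h members, with Ptprc and Adgre1 at 0 at 48 h. Smooth muscle and pericyte markers summed to 4499, 3403 and 2726 CPM at day 10 and to 1977 and 2360 CPM at 48 h, most of it Tagln and Acta2. Mesangial markers summed to 1991, 2383 and 2442 CPM at day 10 and to 1008 and 771 CPM at 48 h, of which Serpine2 was 1529, 1843 and 2007 CPM at day 10 and 389 and 363 CPM at 48 h; Serpine2 itself rose (edgeR adjusted p = 0.000416). Endothelial markers summed to 286, 443 and 418 CPM at day 10 and to 134 and 174 CPM at 48 h, of which Emcn was 192, 366 and 344 CPM at day 10 and 38.3 and 116 CPM at 48 h, with Pecam1 at 4.15, 1.73 and 0.823 CPM at day 10 and at 0 in both 48 h mice. None of these 4 sums overlapped between the times. Ptprc, Adgre1 and Pecam1 lay at day 10 under 8.26 CPM, the level of 3 UMIs over the 48 h members, so their 0 at 48 h does not show absence. Schwann cell markers summed to 14.0, 22.5 and 28.0 CPM at day 10 and to 12.8 and 494 CPM at 48 h; 1 member of mouse 2 had at least 2 of them. The part that depth, RNA quality or these other transcripts had in the changes below was not tested, except where a value is given. Of the 460 members, 422 held UMIs of at least 2 markers of another type, with smooth muscle, mesangial and Schwann markers not counted. In 12 members the markers of another type had more UMIs than the fibroblast markers. Of the members' barcodes, 0 were shared between libraries, and no step that removed doublets was visible in the deposited table.

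Collagen-rich fibroblasts were a larger share of the kidney's cells at day 10 in each mouse. They made up 2.98, 4.43 and 1.47% of kept cells at day 10, against 0.306 and 0.457% at 48 h. The ranges did not overlap, and the log2 change was 2.95 ± 0.55 (SE; edgeR quasi-likelihood on cell numbers over 19 labels, adjusted p = 0.00111). Of the labels tested, 21.1% passed the same threshold. Among interstitial cells they were 50.4, 60.5 and 42.9% at day 10, against 13.0 and 23.9% at 48 h. The other interstitial cells, at 2.93, 2.89 and 1.96% of kept cells at day 10 and 2.04 and 1.45% at 48 h, did not pass the test (log2 change 0.56 ± 0.41, adjusted p = 0.305). The collagen threshold depends on depth and on collagen level, so it was varied. With every cell thinned to 2000 UMIs and at least 2 collagen UMIs asked for, the log2 change was 2.99 (adjusted p = 0.00189), and with the deposited cluster 7 in place of the rule it was 2.64 (adjusted p = 0.00206). A share cannot tell more fibroblasts from fewer cells of other kinds.

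**Figure D1:**
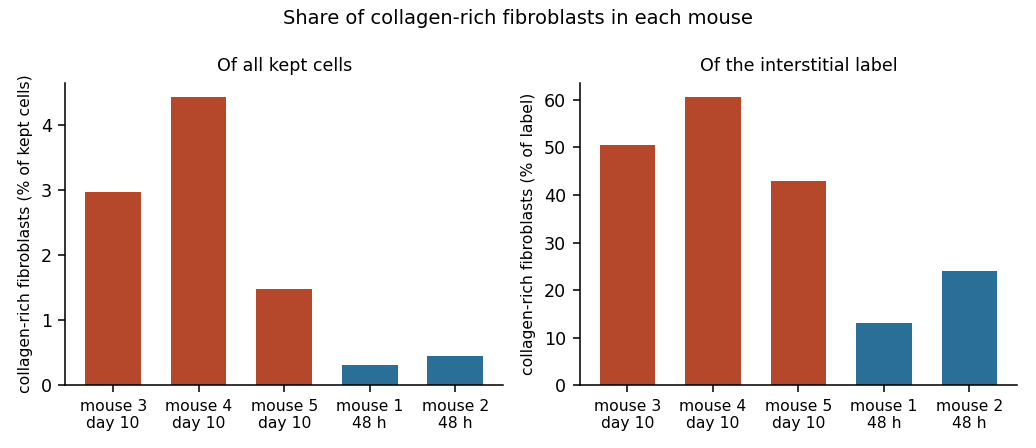
Collagen-rich fibroblasts in each mouse, as a percent of all kept cells (left) and of the cells with the interstitial label (right). Bars are single mice, day 10 in red and 48 h in blue; the day 10 mice stand at 1.47 to 4.43% of kept cells and the 48 h mice at 0.306 and 0.457%.

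Within the fibroblasts, 243 of 9815 tested genes passed the test between day 10 and 48 h, or 2.48% (edgeR quasi-likelihood on UMIs summed per mouse, adjusted p under 0.05, the 3 genes of the rule left out). Of these, 94 were higher at day 10 (0.958% of genes tested) and 149 were lower (1.52%). The counts of calls in the gene lists below are to be read beside these shares. The balance depended on the filter on low counts: with none, 742 genes passed, 399 higher and 343 lower. In 2482 genes (25.3%) every day 10 mouse lay above both 48 h mice in CPM, and in 1560 (15.9%) every one lay below. The median log2 change of all genes was 0.0526. A sum over cells cannot tell a larger share of expressing cells from more RNA in each, so cell numbers are given beside the main genes. Without mouse 2 the count was 101, and 73 of those were among the 243; without mouse 1 it was 155, and without mouse 5 it was 147. With equal numbers of members per mouse it was 44, and with every cell thinned to 2000 UMIs before the rule it was 26. Of 80 called genes named by a fixed rule, 26 kept the call when each mouse was left out in turn: Col10a1, Col12a1, Ltbp2, Nkd2, Sparcl1, Spp1, Tagln, Tnc, Wnt2, Wnt4 and Igfbp7 among the higher genes, and C7, Col14a1, Col6a1, Col6a2, Dcn, F3, Fbln1, Ifit3, Igf1, Lum, Meg3, Pcolce2, Rgs5, Sfrp4 and Tnxb among the lower ones.

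The collagens split. Of 6 fibrillar collagen genes tested apart from those of the rule, Col5a2 rose and Col5a1 and Col1a2 fell, and of 9 other interstitial collagens Col12a1 and Col15a1 rose while Col14a1, Col6a1, Col6a2 and Col6a3 fell. The largest rise among the collagens with counts in both groups was that of Col12a1, a collagen that associates with fibrils (chromosome 9, 79598991 to 79718831, minus strand, mm10). Its levels were 2004, 1682 and 859 CPM at day 10, against 12.8 and 33.9 CPM at 48 h. The gene was detected in 166 of 176, 148 of 173 and 67 of 79 members at day 10 and in 2 of 15 and 5 of 17 at 48 h. Its log2 change was 5.90 ± 0.51 (SE, n = 3 and 2 mice; edgeR quasi-likelihood, adjusted p = 0.000416).

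Col15a1, a collagen of the basement membrane zone, stood at 1247, 1209 and 1482 CPM at day 10, against 593 and 693 CPM at 48 h (log2 change 0.99 ± 0.17, edgeR adjusted p = 0.0158). Col10a1, the type X collagen known from growth plate cartilage, was at 130, 132 and 209 CPM at day 10 and had no UMI at 48 h. With 3 counts over the 48 h group as the floor, it was at least 17.7-fold higher at day 10. Its UMIs came from few cells: 12, 10 and 5 members carried it at day 10, and 1 cell held 24.1% of them.

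The beaded-filament collagen VI genes moved the other way. Col6a2 was at 179, 200 and 161 CPM at day 10, against 854 and 688 CPM at 48 h, and fell by 2.12 ± 0.18 on the log2 scale (edgeR adjusted p = 0.000416). Col6a1 was at 367, 408 and 332 CPM at day 10, against 1224 and 930 CPM at 48 h (log2 change -1.57 ± 0.18, edgeR adjusted p = 0.00181). Col14a1, a fibril-associated collagen, was at 115, 93.2 and 62.6 CPM at day 10, against 1243 and 581 CPM at 48 h (log2 change -3.34 ± 0.32, edgeR adjusted p = 0.000601). In each of these genes the 3 day 10 mice lay below both 48 h mice, which for Col14a1 was a condition of its choice as a largest fall. Several of the collagen changes depended on the threshold for collagen UMIs. Col1a2 had a log2 change of -0.61, Col5a1 of -0.95 and Col6a3 of -0.79 with it. The values were 0.62, 0.37 and 0.39 without it, when all interstitial cells with at most 1 Myh11 UMI were summed. Col6a1 lost the call without it (log2 change -0.33, edgeR adjusted p = 0.314). With cells thinned before the rule, Col6a1 (log2 change -0.96, edgeR adjusted p = 0.256), Col6a2 (-1.55, 0.0559) and Col14a1 (-1.88, 0.0576) each lost the call.

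Of 8 small leucine-rich proteoglycans tested, which bind collagen fibrils and set their spacing, 6 fell (Lum, Fmod, Aspn, Podn, Ogn and Dcn) and 0 rose; the median log2 change was -2.63, against 0.0526 over all genes. Dcn, or decorin (chromosome 10, 97479609 to 97518143, mm10), was at 1048, 929 and 595 CPM at day 10, against 3564 and 2529 CPM at 48 h. The groups did not overlap, and the log2 change was -1.85 ± 0.23 (edgeR adjusted p = 0.0027). The call was lost with no collagen threshold (log2 change -0.54, edgeR adjusted p = 0.221). It was also lost with equal numbers of members per mouse (log2 change -1.81, edgeR adjusted p = 0.0884). Dcn was found in 126 of 176, 117 of 173 and 51 of 79 members at day 10 and in 10 of 15 and 12 of 17 at 48 h.

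Lum, or lumican, was at 21.1, 21.2 and 60.1 CPM at day 10, against 459 and 548 CPM at 48 h (log2 change -4.02 ± 0.41, edgeR adjusted p = 0.000751). Its 48 h level rested on 2 members of mouse 1 and 5 of mouse 2, of which 1 cell held 25.9% of the UMIs. Bgn, or biglycan, the most abundant proteoglycan of the list that did not pass the test, stood at 2746, 2909 and 2609 CPM at day 10 and 2882 and 2587 CPM at 48 h. Prelp, the other, was at 139, 73.4 and 81.5 CPM at day 10 and 63.8 and 111.4 CPM at 48 h (edgeR adjusted p = 0.948). Fmod lost the call without mouse 2 (edgeR adjusted p = 0.141), Aspn without mouse 2 (0.466) or mouse 5 (0.08), and Podn without mouse 1 (0.132).

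Matricellular and adhesive glycoproteins, which sit in the matrix and signal to cells, moved mainly upward: 6 of 17 tested rose (Spp1, Sparcl1, Thbs2, Tnc, Fn1 and Thbs1) and 2 fell (Tnxb and Vcan). Tnc, or tenascin-C, a protein of wounds and developing tissue, was at 861, 886 and 1028 CPM at day 10, against 166 and 189 CPM at 48 h (log2 change 2.34 ± 0.20, edgeR adjusted p = 0.000416). Sparcl1, a counter-adhesive glycoprotein, was at 985, 1088 and 1000 CPM at day 10, against 102 and 160 CPM at 48 h (log2 change 2.91 ± 0.23, edgeR adjusted p = 0.000356). Fn1, or fibronectin, was at 2094, 2360 and 2369 CPM at day 10, against 446 and 446 CPM at 48 h (log2 change 2.32 ± 0.16, edgeR adjusted p = 0.000187). Values within a group lay close together for all 3 genes.

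Spp1, or osteopontin, was the most abundant of these, at 9774, 14113 and 19783 CPM at day 10, against 2812 and 858 CPM at 48 h (log2 change 2.98 ± 0.45, edgeR adjusted p = 0.00849). Cells outside the interstitial label also carried it, at 11646 CPM at day 10 and 31653 CPM at 48 h, so its level outside was lower at day 10 while its level in members was higher. The change in members exceeded that outside by 4.81 on the log2 scale (edgeR interaction test, adjusted p = 5.97e-08). Tnxb, or tenascin-X, a protein of mature connective tissue, was at 14.3, 13.8 and 6.59 CPM at day 10, against 115 and 107 CPM at 48 h (log2 change -3.20 ± 0.37, edgeR adjusted p = 0.00182).

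**Figure D2:**
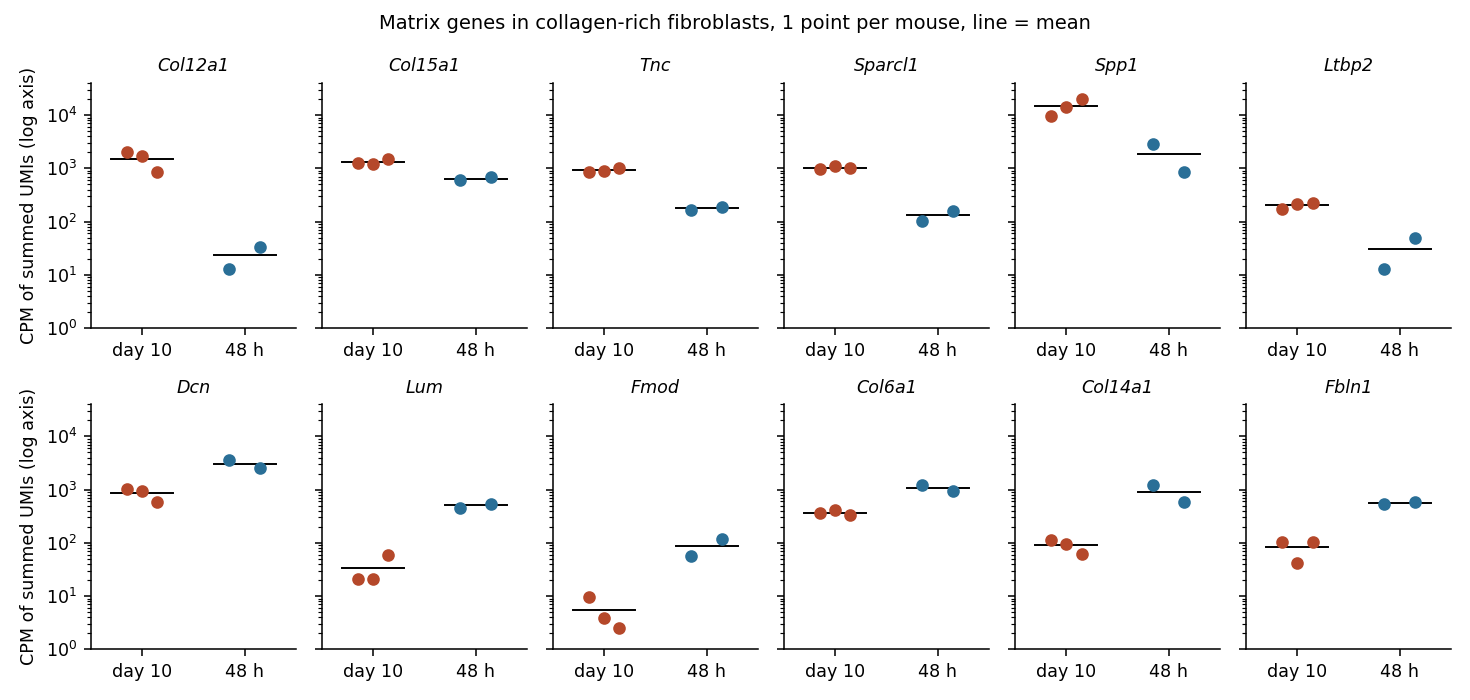
Levels of 12 matrix genes in collagen-rich fibroblasts, as CPM of the UMIs summed per mouse on a log axis; points are mice, day 10 in red left of 48 h in blue, and lines are group means. The upper row holds genes that rose (Col12a1 is at 2004, 1682 and 859 CPM at day 10 and 12.8 and 33.9 CPM at 48 h), the lower row genes that fell. The groups of each do not overlap, which was a condition for genes chosen as largest rises or falls, such as Col12a1.

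Elastic fibre genes were divided, with 2 of 15 higher (Fbn2 and Ltbp2) and 6 lower (Fbln1, Mfap4, Eln, Ltbp1, Fbln5 and Emilin1). Among all genes 0.958% were higher and 1.52% lower. Fbn2 did not pass in DESeq2 (adjusted p = 0.0864). With no collagen threshold, Mfap4 (log2 change -1.26, edgeR adjusted p = 0.0871), Eln (-0.90, 0.17) and Ltbp1 (-0.74, 0.317) lost the call. With cells thinned before the rule, Fbn2, Ltbp2, Fbln1, Mfap4, Eln and Ltbp1 each lost it. Ltbp2, a protein that binds fibrillin microfibrils, was at 173, 216 and 222 CPM at day 10, against 12.8 and 48.5 CPM at 48 h (log2 change 2.60 ± 0.40, edgeR adjusted p = 0.00954). Fbln1, or fibulin-1, was at 105, 41.0 and 105 CPM at day 10, against 529 and 581 CPM at 48 h (log2 change -2.78 ± 0.35, edgeR adjusted p = 0.00307). In mouse 1 and mouse 2 together, 1 cell held 41.9% of its UMIs.

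Enzymes that process collagen fell where they moved. Of 19 tested, 6 fell (Pcolce2, Plod2, Loxl3, Pcolce, P4hb and Serpinh1) and 0 rose, against 1.52% lower among all genes. Pcolce, which speeds the removal of the collagen C-propeptide, was at 282, 279 and 354 CPM at day 10, against 612 and 848 CPM at 48 h (log2 change -1.30 ± 0.21, edgeR adjusted p = 0.0115). With no collagen threshold, Pcolce (log2 change -0.35, edgeR adjusted p = 0.453), Plod2 (-0.83, 0.109) and Loxl3 (-0.43, 0.455) lost the call. The same genes lost it with equal numbers of members (edgeR adjusted p = 0.174, 0.258 and 0.19). Pcolce2 kept its call in all 17 alternative fits in which it was tested. Lox, the crosslinking enzyme lysyl oxidase, was at 433, 499 and 400 CPM at day 10 and 300 and 194 CPM at 48 h, and did not pass the test (edgeR adjusted p = 0.0959). Among 17 metalloproteinases and inhibitors, Mmp2 and Ctsk rose and 0 fell. Mmp2, a gelatinase, was at 244, 229 and 221 CPM at day 10, against 51.0 and 111.4 CPM at 48 h (log2 change 1.42 ± 0.29, edgeR adjusted p = 0.0325). Ctsk, a collagen-degrading cathepsin, was at 223, 250 and 208 CPM at day 10, against 108 and 87.2 CPM at 48 h (log2 change 1.20 ± 0.24, edgeR adjusted p = 0.0283). Without 1 mouse, Mmp2 kept its call in 1 of the 5 fits and Ctsk in 0.

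Of 14 contractile and myofibroblast genes tested, only Tagln passed the test, where 2.48% of all genes passed. Tagln, an actin-binding protein, was at 2848, 2083 and 1676 CPM at day 10, against 536 and 635 CPM at 48 h (log2 change 1.87 ± 0.23, edgeR adjusted p = 0.0027). With cells of at least 3 collagen UMIs taken in, the log2 change was 1.04 and the call was lost (edgeR adjusted p = 0.134); the 42 cells just outside the threshold had 2248 CPM of Tagln and the 43 just inside 992 CPM. Acta2, the smooth muscle actin that commonly defines myofibroblasts, stood at 1313, 933 and 677 CPM at day 10 and at 905 and 935 CPM at 48 h (edgeR adjusted p = 0.959). Its groups overlapped.

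The share of members with at least 1 UMI was counted after each cell was thinned to 2000 UMIs, which kept 369 members at day 10 and 28 at 48 h. Tnc was found in 68.4, 62.0 and 58.3% of members at day 10, against 8.33 and 18.8% at 48 h (without thinning, 90.3, 79.8 and 86.1% at day 10 against 33.3 and 58.8% at 48 h). Its share in proximal tubule cells, which should lack it, reached at most 1.05%. Tagln was found in 79.4, 65.5 and 65.3% at day 10, against 41.7 and 56.3% at 48 h. Without thinning the Tagln shares overlapped, at 85.2, 85.0 and 78.5% at day 10 against 80 and 76.5% at 48 h, and the difference of means was 4.66 percentage points in place of 21.1. Acta2 was found in 58.7, 44.4 and 47.2% at day 10, against 58.3 and 68.8% at 48 h. Ly6a, a surface antigen common on adventitial fibroblasts, was found in 12.3, 7.04 and 2.78% of members at day 10, against 58.3 and 56.3% at 48 h. Without thinning they were 46.0, 20.8 and 26.6% at day 10, against 66.7 and 64.7% at 48 h. Proximal tubule cells carried Ly6a in 13.6 to 30.9% after thinning, above the day 10 members, and whether that is free RNA or expression was not tested. Pdgfra, in 58.1, 57.0 and 62.5% at day 10 and 58.3 and 50% at 48 h, overlapped between the times. With 3 mice against 2, the exact two-sided permutation test cannot give a p below 0.1, which Tnc, Tagln, Ly6a, Pi16 and Cd34 each reached. Cd34 did so with 2.58, 2.11 and 1.39% at day 10 and 0% in both 48 h mice, and its difference turned to -5.70 percentage points without thinning.

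**Figure D3:**
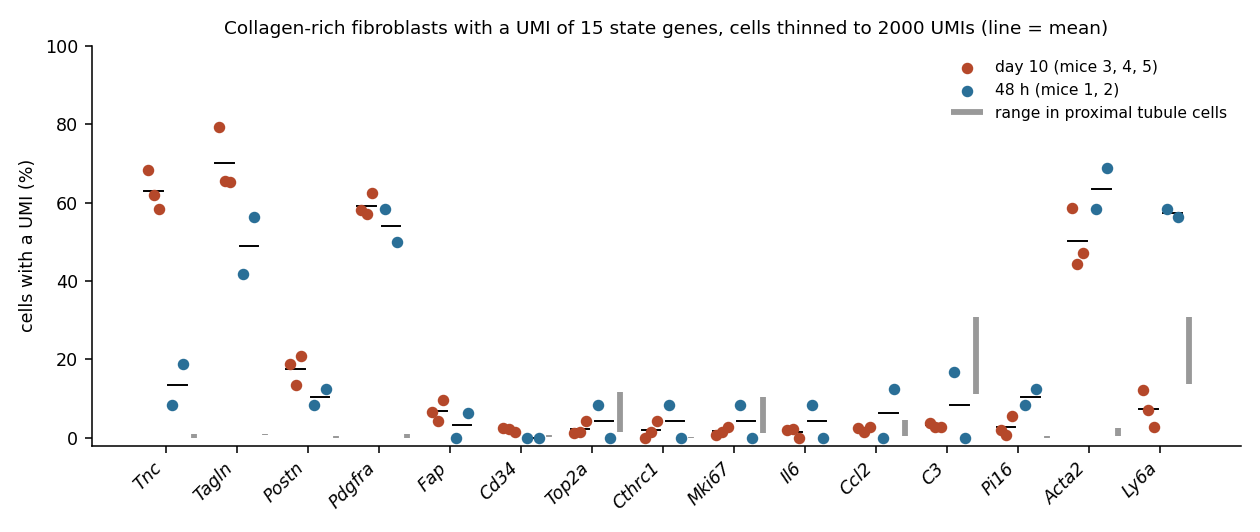
Percent of collagen-rich fibroblasts with at least 1 UMI of each state gene, after thinning each cell to 2000 UMIs; points are mice (day 10 red, left; 48 h blue, right), black lines are means and grey bars are the range over the mice in proximal tubule cells. Tnc stands at 58.3 to 68.4% at day 10 and 8.33 and 18.8% at 48 h, and Ly6a at 2.78 to 12.3% at day 10 and 58.3 and 56.3% at 48 h.

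Of 13 genes tested that are common to fibroblasts around vessels, 7 fell (Pcolce2, Pi16, Sema3c, Col14a1, Ly6a, Ly6c1 and Gsn) and 0 rose, with a median log2 change of -1.84, against 0.0526 over all genes. Pcolce2 was at 4.15, 4.75 and 0.823 CPM at day 10, against 128 and 92.1 CPM at 48 h (log2 change -4.90 ± 0.47, edgeR adjusted p = 0.000609). Pi16, which marks adventitial fibroblasts in mouse tissues, was at 12.1, 3.02 and 10.7 CPM at day 10, against 89.3 and 160 CPM at 48 h (log2 change -3.94 ± 0.51, edgeR adjusted p = 0.00391). Both were carried by few members at 48 h: Pcolce2 by 5 of 15 and 3 of 17, and Pi16 by 1 of 15 and 2 of 17. Without mouse 2 the call of Pi16 was lost (edgeR adjusted p = 0.0872). Dpt, or dermatopontin, another gene of the list, was at 185, 64.8 and 178 CPM at day 10 and 204 and 203 CPM at 48 h and did not pass the test (edgeR adjusted p = 0.581).

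Rgs5, which marks pericytes, fell. It was at 21.5, 16.8 and 14.8 CPM at day 10, against 261 and 475 CPM at 48 h (log2 change -4.40 ± 0.29, edgeR adjusted p = 0.000187). It was found in 22 of 176, 17 of 173 and 6 of 79 members at day 10 and in 4 of 15 and 5 of 17 at 48 h, where 1 cell held 32.4% of its UMIs. Notch3, a pericyte receptor, was at 29.4, 50.1 and 24.7 CPM at day 10 and at 25.5 and 48.5 CPM at 48 h, and its groups overlapped. Cspg4, a pericyte proteoglycan, was at 75.8, 94.5 and 69.2 CPM at day 10 and at 0 and 24.2 CPM at 48 h (edgeR adjusted p = 0.0623). Mcam, an adhesion molecule of pericytes, was at 24.1, 31.9 and 29.6 CPM at day 10 and at 6.38 and 4.85 CPM at 48 h (edgeR adjusted p = 0.1135). Both lay higher at day 10 without overlap, as did 25.3% of all genes tested, and did not pass the test. Ren1, the renin gene, was at 0.377, 1.73 and 0 CPM at day 10 and 31.9 and 29.1 CPM at 48 h, on 5 and 11 UMIs in all (edgeR adjusted p = 0.0288).

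Wnt ligands and a Wnt inhibitor rose. Of 17 Wnt pathway genes tested, 3 rose (Nkd2, Wnt2 and Wnt4) and 1 fell (Sfrp4), against 0.958% higher and 1.52% lower among all genes. Wnt4 was at 461, 421 and 787 CPM at day 10, against 31.9 and 96.9 CPM at 48 h (log2 change 3.00 ± 0.44, edgeR adjusted p = 0.00756), and its 48 h UMIs came from 2 of 15 and 7 of 17 members. Nkd2, an inhibitor of Wnt signalling, was at 176, 199 and 189 CPM at day 10, against 0 and 4.85 CPM at 48 h. With 1156 UMIs against 1, its ratio was 67.9 (95% exact interval 12.2 to 2684, counting error only; edgeR adjusted p = 0.000553). Wnt2 was at 112.7, 91.1 and 90.6 CPM at day 10 and 0 and 4.85 CPM at 48 h, a ratio of 36.4 (95% exact interval 6.51 to 1441; edgeR adjusted p = 0.00314). Sfrp4, a secreted Wnt antagonist, was at 12.1, 2.16 and 2.47 CPM at day 10, against 383 and 126 CPM at 48 h (log2 change -5.31 ± 0.61, edgeR adjusted p = 0.00182), from 3 members of mouse 1 and 2 of mouse 2. The related Sfrp1, at 979, 615 and 577 CPM at day 10 and 568 and 412 CPM at 48 h, did not pass the test (edgeR adjusted p = 0.333).

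In the TGF-beta pathway 3 of 25 genes rose (Tgfb2, Inhbb and Tgfbr1) and 0 fell, against 0.958% higher and 1.52% lower among all genes tested. None of the 3 is among the genes that kept the call when each mouse was left out in turn. With cells thinned before the rule all 3 lost the call, at log2 changes of 7.41, 7.23 and 3.51 (edgeR adjusted p = 0.257, 0.133 and 0.162). Tgfbr1, the type I receptor, was at 169, 222 and 151 CPM at day 10, against 31.9 and 38.8 CPM at 48 h (log2 change 2.31 ± 0.35, edgeR adjusted p = 0.00909). Tgfb2, a ligand, was at 85.2, 146 and 155 CPM at day 10, against 0 and 9.69 CPM at 48 h, a ratio of 22.1 (95% exact interval 6.09 to 183; edgeR adjusted p = 0.0137). Inhbb, the activin B subunit, was at 81.4, 88.1 and 77.4 CPM at day 10, against 0 and 14.5 CPM at 48 h, all 3 of its UMIs at 48 h being in 1 cell. Among 11 receptors and ligands of the PDGF and FGF families, 0 were called in edgeR at an adjusted p under 0.05, against 2.48% of all genes.

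Of 9 Hedgehog pathway genes tested, 2 fell (Hhip and Ptch1) and 0 rose, against 1.52% lower among all genes. Hhip and Ptch1 are both induced by the pathway and limit it. Ptch1, the Hedgehog receptor, was at 17.0, 21.6 and 19.8 CPM at day 10, against 44.6 and 96.9 CPM at 48 h (log2 change -1.95 ± 0.39, edgeR adjusted p = 0.0278). Without mouse 2 the log2 change of Ptch1 was -1.15 (edgeR adjusted p = 0.403). Hhip rested on 8 UMIs at day 10 and 12 at 48 h, where 2 members of each mouse carried it. With 1 mouse left out, Ptch1 kept its call in 2 of 5 fits, and Hhip passed the filter on low counts in 2 and kept its call in 1. Gas1, a co-receptor, was at 124, 107 and 140 CPM at day 10 and 82.9 and 150.2 CPM at 48 h (edgeR adjusted p = 0.999). In the IGF axis, Igf1, the growth factor itself, was at 25.6, 13.4 and 17.3 CPM at day 10, against 389 and 160 CPM at 48 h (log2 change -3.84 ± 0.39, edgeR adjusted p = 0.000751). Igfbp7, a secreted IGF-binding protein, was at 9211, 8533 and 9594 CPM at day 10, against 5025 and 5262 CPM at 48 h (log2 change 0.79 ± 0.11, edgeR adjusted p = 0.00597). Igfbp2 was at 213, 99.3 and 98.8 CPM at day 10 and had no UMI at 48 h, which made it at least 17.9-fold higher at day 10. With at least 3 collagen UMIs asked for, its log2 change was 0.34 (edgeR adjusted p = 0.889).

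Interferon response genes gave the largest number of falls among the 33 lists: 10 of 18 tested fell (among them Usp18, Ifit1, Ifit3, Ifi27l2a, Isg15, Bst2, Xaf1, Gbp2 and Iigp1) and 0 rose, with a median log2 change of -2.20, against 0.0526 over all genes. Isg15, a ubiquitin-like protein induced by interferon, was at 26.8, 8.20 and 37.1 CPM at day 10, against 204 and 291 CPM at 48 h (log2 change -3.49 ± 0.48, edgeR adjusted p = 0.00519). Ifi27l2a was at 176, 37.1 and 254 CPM at day 10, against 1345 and 2704 CPM at 48 h (log2 change -3.77 ± 0.59, edgeR adjusted p = 0.0107). Ifit3 was at 8.67, 5.18 and 7.41 CPM at day 10, against 95.6 and 102 CPM at 48 h (log2 change -3.82 ± 0.36, edgeR adjusted p = 0.000601), although it shares reads with its close copy Ifit3b. Ifit1 was at 12.8, 3.89 and 5.76 CPM at day 10, against 44.6 and 184 CPM at 48 h (log2 change -3.95 ± 0.61, edgeR adjusted p = 0.00954), with 60.0% of its 48 h UMIs in 1 cell. Mouse 4 was the lowest of the day 10 mice in all 4 genes. Without mouse 2 the calls of Isg15 (log2 change -3.11, adjusted p = 0.0792), Ifi27l2a (-3.09, adjusted p = 0.081) and Ifit1 (-2.46, adjusted p = 0.282) were lost in edgeR, and that of Ifit3 was kept.

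The falls of Isg15 and Bst2 were larger than in the cells outside the interstitial label, but were not shown to differ from those in the other interstitial cells. Outside the label Isg15 stood at 28.4 CPM at day 10 and 60.6 CPM at 48 h. The change in members minus that outside was -2.15 ± 0.33 on the log2 scale (edgeR interaction test, adjusted p = 0.000711). For Bst2, or tetherin, members were at 81.0, 25.5 and 73.3 CPM at day 10, against 357 and 494 CPM at 48 h, and the cells outside at 155 and 163 CPM (difference of changes -2.62, adjusted p = 8.31e-05). Against the other interstitial cells the difference did not pass for Isg15 (-1.92, adjusted p = 0.138), which stood there at 33.6 CPM at day 10 and 97.6 CPM at 48 h, or for Bst2 (-1.74, adjusted p = 0.0627), at 85.8 CPM at day 10 and 196 CPM at 48 h. Against Myh11-positive cells it did not pass for Isg15 (adjusted p = 0.0571) and passed for Bst2 (-2.38, adjusted p = 0.0307). Without mouse 2 the call of Bst2 in members was lost (log2 change -2.54, edgeR adjusted p = 0.0792). MHC class I and II genes, which interferon also induces, gave 0 calls of 12 tested in edgeR, and their median log2 change was -0.546. With 2.48% of all genes called, 0 calls among 12 cannot set this list apart.

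Promoters of this list show the sequence that the interferon-activated factor ISGF3 is known to bind. The motif searched was GAAANNGAAA on both strands, overlaps allowed, over 250 bases before and 50 after each start site in RefSeq (GRCm38.p6, the mm10 build). It was in 3.45% of all 32544 promoters and in 8 of the 16 list genes that matched a promoter by symbol. Of the genes of the list that fell, 6 had a promoter in the table and 5 of those held the motif (Bst2, Gbp2, Ifit1, Ifit3 and Isg15). The promoters of Isg15 (chr4:156200769-156201068, minus strand) and Ifit1 (chr19:34640639-34640938, plus strand) are printed because both genes fell and hold 3 and 2 matches; capitals mark the bases in a match.
Isg15: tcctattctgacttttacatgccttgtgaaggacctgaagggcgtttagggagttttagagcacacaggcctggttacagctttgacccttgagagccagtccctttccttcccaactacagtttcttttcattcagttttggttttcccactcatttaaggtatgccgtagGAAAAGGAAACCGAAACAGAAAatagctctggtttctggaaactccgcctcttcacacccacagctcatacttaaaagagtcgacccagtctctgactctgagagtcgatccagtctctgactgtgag
Ifit1: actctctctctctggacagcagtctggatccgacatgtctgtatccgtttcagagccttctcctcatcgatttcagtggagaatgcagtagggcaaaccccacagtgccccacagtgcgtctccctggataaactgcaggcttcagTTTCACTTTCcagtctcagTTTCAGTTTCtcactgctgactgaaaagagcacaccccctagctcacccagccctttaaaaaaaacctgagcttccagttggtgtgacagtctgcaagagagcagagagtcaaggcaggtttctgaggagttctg
A match describes these letters and not binding in these cells, which was not measured.

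Chemokines and cytokines moved in both directions, and 1 complement gene fell. Of 14 chemokines and cytokines tested, Cxcl5 and Cxcl14 rose and Csf1 and Cxcl12 fell. Csf1, the macrophage growth factor, was at 49.8, 45.3 and 35.4 CPM at day 10, against 134 and 310 CPM at 48 h (log2 change -2.40 ± 0.33, edgeR adjusted p = 0.00519), with 42.4% of the 48 h UMIs in 1 cell, and the call was lost without mouse 2 (adjusted p = 0.0994). Cxcl14 was at 1565, 2076 and 1604 CPM at day 10, against 842 and 252 CPM at 48 h (log2 change 1.68 ± 0.38, edgeR adjusted p = 0.0473). That call was lost with RLE factors (adjusted p = 0.0524), with library totals (0.0503) and in 4 of 5 fits with 1 mouse left out. Cxcl12, a chemokine of stromal cells, was at 274, 252 and 285 CPM at day 10, against 376 and 1618 CPM at 48 h (log2 change -1.94 ± 0.42, edgeR adjusted p = 0.042). Without mouse 2 its log2 change was -0.43 (edgeR adjusted p = 0.433). C7, a terminal complement component, was at 38.5, 19.9 and 18.9 CPM at day 10, against 217 and 170 CPM at 48 h (log2 change -2.88 ± 0.34, edgeR adjusted p = 0.00239), and was the only one of 15 complement genes called. F3, or tissue factor, which starts coagulation, was at 18.1, 22.0 and 49.4 CPM at day 10, against 472 and 368 CPM at 48 h (log2 change -3.93 ± 0.37, edgeR adjusted p = 0.000601).

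Several lists showed no call. edgeR tests at an adjusted p under 0.05 found 0 of 15 S phase and 0 of 17 G2 and M phase genes, although their median log2 changes were -1.06 and -1.57. They also found 0 of 15 glycolysis genes, 0 of 20 nuclear oxidative phosphorylation genes, 0 of 8 hypoxia targets, 0 of 12 metallothionein and glucocorticoid targets and 0 of 12 p53 targets. Over all genes 2.48% were called, so 0 calls in lists of this size cannot set them apart. An unadjusted p under 0.05 was found in 1564 genes.

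**Figure D4:**
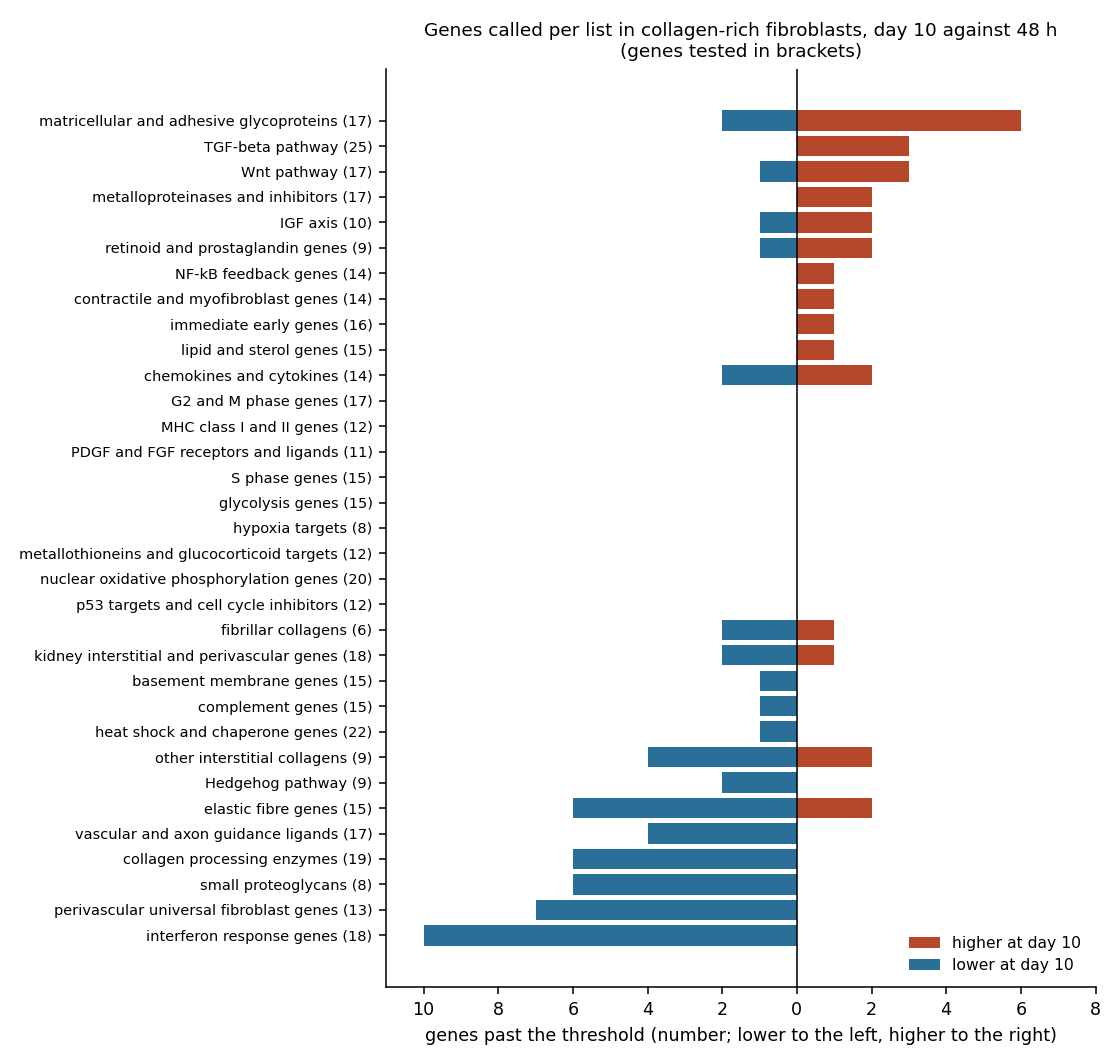
Number of genes past the threshold in each gene list in collagen-rich fibroblasts, day 10 against 48 h, with higher genes to the right in red and lower genes to the left in blue; the number tested stands in brackets. Interferon response genes (10 of 18), perivascular genes (7 of 13) and small proteoglycans (6 of 8) have calls on the lower side alone, and matricellular genes (6 of 17) have most calls on the higher side.

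Changes in the fibroblasts were set against those in the interstitial cells with at least 2 Myh11 UMIs, which held 101, 58 and 59 cells at day 10 and 28 and 18 cells at 48 h. The difference of the 2 changes passed the test in 180 of 8929 genes (2.02%; edgeR quasi-likelihood interaction with mouse as a block), 29 of them higher and 151 lower (1.69%) in the fibroblasts. Against all other cells of the label it passed in 231 genes (2.33%), 192 of them lower (1.94%), and against cells outside the label in 323 (1.94%), 155 of them higher (0.929%) and 168 lower (1.01%). On their own, Myh11-positive cells changed in 1.51% of genes tested and cells outside the label in 0.918%. Myh11-positive cells with 5 or more collagen UMIs numbered 79 at day 10 and 6 at 48 h, and what this difference in make-up adds to the changes of collagen genes was not tested. Tagln rose in fibroblasts by 1.87 and changed by -0.59 in Myh11-positive cells, where it was at 5632 CPM at day 10 and 7886 CPM at 48 h (difference 2.41 ± 0.26, adjusted p = 0.000805). Sparcl1 rose by 2.91 in fibroblasts and changed by -0.55 in Myh11-positive cells (difference 3.43, adjusted p = 0.000739). Rgs5 fell by 4.40 in fibroblasts and changed by -0.60 in Myh11-positive cells, at 2658 CPM at day 10 and 3754 CPM at 48 h (difference -3.70 ± 0.41, adjusted p = 0.000857). Tnc rose in both sets, by 2.34 and by 4.07, and the difference did not pass the test (adjusted p = 0.216).

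**Figure D5:**
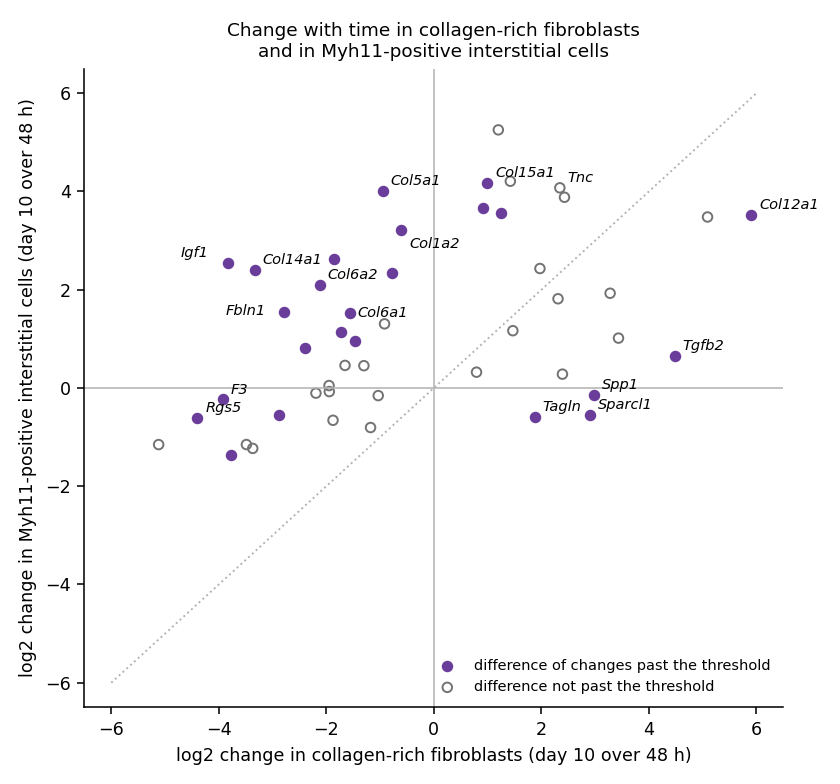
Log2 change (day 10 over 48 h) of named genes called in collagen-rich fibroblasts, in those cells (horizontal) and in Myh11-positive interstitial cells (vertical); 48 genes are drawn, 12 beyond the axes are not, and the dotted line marks equal change. Filled points are genes whose difference of changes passed the test, among them Tagln, Sparcl1 and Spp1, which rose in fibroblasts and stand at -0.59, -0.55 and -0.14 in the other set.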

How the data were processed

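Kidney cells of 5 mice were measured with 10x 3′ libraries. The authors deposited matrices of unnormalised UMI counts (32285 genes by barcodes) and a table of 23797 cells with counts, the percent of mitochondrial UMIs, cell type and cluster. Its embedding scores, also deposited by the authors, were not used. Cell Ranger is version 6.0.0 per the file headers, and Cell Ranger 6.0.2, Seurat 4.0.5 and mm10 are listed in the submitters' processing notes. The counting settings are not given in the sources used here.

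Members and the 33 gene lists were chosen with earlier results of these data known. UMIs were summed per mouse over members and tested with edgeR 4.0.16 in R 4.3.3 (filterByExpr, TMM, quasi-likelihood F test, Benjamini-Hochberg adjustment over all genes, threshold 0.05). SE is the size of the log2 change over the root of F. CPM are of raw totals, whereas log2 changes use TMM factors. Differences between cell sets were interaction terms with mouse as a block. Floors (3 counts over a group) and 95% Clopper-Pearson intervals cover counting error only. For shares of cells with a UMI, cells were thinned to 2000 UMIs and shallower cells were left out.

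Named genes were, first, the 12 largest rises and 12 largest falls past the threshold with an average log2 CPM of at least 5. In each of these, all day 10 mice also had to lie on the same side of both 48 h mice. Members also had to reach at least the level of cells outside the label. For these genes the separation of the times was thus part of the choice and is not a separate result. Up to 4 rises, 4 falls and 2 uncalled genes per list were added, as were the rule's genes, Dcn and Pdgfra. Fn1, Acta2, Ly6a, Notch3, Cspg4, Mcam, Serpine2, Emcn and Pecam1 were named after their values were seen. On simulated counts for 9818 genes, the changed genes were drawn only from those with summed counts at or above the median. Of these, 94 of 100 changed by a log2 of 3 and 82 of 100 changed by 2 were recovered, with 10 false calls among 186. Recovery of genes with lower counts was not measured. Alternatives were DESeq2 1.42.0, other scalings, filters and member rules, and leaving out each mouse. Some genes of the lists are counted but not reported here by name.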

Additional observations from a re-analysis of the deposited data

Results flagged for a closer look

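The time effect on 3 collagen genes differed between the collagen-rich fibroblasts and the Myh11-positive interstitial cells in the test of the difference itself (edgeR interaction with mouse as a block, adjusted over all genes). They were flagged because each was also called within both cell sets, in opposite directions. Other collagens passed the same interaction test, among them Col6a1 and Col6a2 (both adjusted p = 0.000223), Col5a2 (0.00291), Col14a1 (0.00332), Col15a1 (0.00704) and Col12a1 (0.0307). The change in fibroblasts minus that in Myh11-positive cells was -5.06 on the log2 scale for Col5a1 (adjusted p = 0.000223), which was at 261 CPM at day 10 and 16.0 CPM at 48 h in the Myh11-positive cells. For Col1a2 the difference was -3.81 (adjusted p = 6.85e-05), with 2833 CPM at day 10 and 284 CPM at 48 h in the Myh11-positive cells. For Col6a3 it was -3.15 (adjusted p = 0.00248), with 570 CPM at day 10 and 107 CPM at 48 h in those cells. Fibroblasts had to carry collagen UMIs at both times to be members, while Myh11-positive cells did not, and the part of this rule in the differences was not tested.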

How the results depend on the processing

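No paired analysis was possible because the mouse numbers are not shared between day 10 and 48 h. The count of 243 changed genes was 742 with no filter on low counts, 878 with no collagen threshold, 26 with cells thinned before the rule, 44 with equal numbers of members and 4 with members holding 2 markers of another type left out, which left 2 cells in each 48 h mouse; leaving out 1 mouse gave 101 to 177. Leaving out the members with 2 markers of another type also left only 9, 22 and 3 cells at day 10 (mice 3, 4 and 5). DESeq2 called 351 genes and shared 235 with edgeR. Genes whose time effect differed from that in the other interstitial cells were 2.33% of those tested, 2.82% with no filter and 0.214 to 2.68% without 1 mouse (0.214% without mouse 1, 0.45% without mouse 2, 1.12% without mouse 5). Against cells outside the label they were 1.94%, 2.42% with no filter and 0.642 to 3.25% without 1 mouse (0.72% without mouse 1, 0.642% without mouse 2, 3.25% without mouse 4). The log2 change of the share of kept cells ranged over 2.55 to 3.28 without 1 mouse. Differences in shares of members with a UMI, in percentage points, turned for Cthrc1 (0.772) and Cd34 (-5.70) without thinning. Without 1 mouse they ran over -6.47 to 1.86 for Cthrc1, -6.72 to 1.61 for Mki67, -6.04 to 2.29 for Top2a, -10.2 to 2.26 for Ccl2, -13.5 to 3.16 for C3 and -6.98 to 1.35 for Il6. With no collagen threshold the log2 change turned for Col5a1 (0.37), Col1a2 (0.62), Col6a3 (0.39), Vcan (0.34), Pdgfra (0.55), Klf2 (-0.21), Ren1 (1.79) and Ptgs1 (-0.24). With members holding 2 markers of another type left out it turned for Col1a2 (1.19), Col6a1 (0.07), Col6a3 (0.51), Lpl (-0.13) and Dcn (1.06). Pdgfra was at 0.0108 in cluster 7 and ran over -0.39 to 0.0159 without 1 mouse. The causes were not tested. Of the 80 called named genes, 26 still passed whichever mouse was left out. The 15 and 17 members at 48 h limit what could be detected.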

Other observations

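Malat1, a nuclear long noncoding RNA, was chosen after its values were seen. It was at 48607, 52066 and 45472 CPM in collagen-rich fibroblasts at day 10, against 28312 and 28388 CPM at 48 h (log2 change 0.75 ± 0.09, edgeR adjusted p = 0.00205). The groups did not overlap.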
